A study of Homo sapiens with 6 samples.

Results

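COL5A1, COL8A1, FN1 and LOX are 4 genes of the extracellular matrix, taken by name from a table of 402 genes measured by RNA sequencing in CAL-27 cells. CAL-27 is an established line of oral squamous cell carcinoma. The 3 NC libraries are the controls, an abbreviation the labels do not spell out, and the 3 shYTHDC2 libraries come from the same line with YTHDC2 knocked down, as the name says by a short hairpin RNA. The labels do not say whether the knockdown line is a clone or a pool, how many hairpins were used, or whether replicates were separate cultures, so an error given here is the spread between these libraries. The 4 genes were chosen from their higher FPKM in shYTHDC2 than in NC, in a table whose genes the authors had all marked as up and significant. Their differences between the groups are therefore descriptions, and no test is read from them.

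YTHDC2, a helicase, recognises N6-methyladenosine, a methyl group on adenosines of RNA. The matrix outside cells is built from secreted proteins. Collagens are trimers of chains built from Gly-X-Y repeats, in which glycine recurs at regular steps, fibronectin is a large adhesive glycoprotein that cells assemble into fibrils through integrins, and lysyl oxidase is a copper enzyme that oxidises lysines of collagen and elastin so that the fibres become crosslinked. In carcinomas these proteins are best known as products of fibroblasts of the stroma, and carcinoma cells with mesenchymal features can make them as well.

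COL5A1 (ENSG00000130635) encodes the alpha-1 chain of type V collagen, a minor fibrillar collagen that takes part in starting collagen fibrils. In GRCh38 with GENCODE release 29 it spans 134641774 to 134844843 on chromosome 9, plus strand, and its longest coding transcript has 66 exons. COL8A1 (ENSG00000144810) encodes the alpha-1 chain of type VIII collagen, a short-chain, network-forming collagen of basement membranes, and spans 99638475 to 99799226 on chromosome 3, plus strand, with 5 exons. FN1 (ENSG00000115414), fibronectin, spans 215360440 to 215436172 on chromosome 2, minus strand, with 46 exons. LOX (ENSG00000113083), lysyl oxidase, spans 122063195 to 122078360 on chromosome 5, minus strand, with 7 exons. The exons of LOX overlap those of SRFBP1 on the opposite strand. The strand setting of the counting is not given in the sources used here, and LOX and SRFBP1 reads cannot be told apart with certainty. COL5A1 contains the antisense gene COL5A1-AS1 with no overlap of exons, and COL8A1 and FN1 overlap no other annotated gene.

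Promoter sequences are shown to give the letters upstream of genes that were higher together in shYTHDC2. RefSeq windows (GRCh38.p14) were matched by symbol for 3 of the 4 genes, COL5A1, FN1 and LOX. The reference holds 2 windows for COL5A1, 1 for FN1 and 3 for LOX, and the one lying furthest upstream was used for each gene. The sequence runs 5′ to 3′ on the strand of the gene and holds the bases of the window of 250 before the RefSeq start that also lie upstream of the GENCODE gene. Capitals mark the motif matches given in the next paragraph.
COL5A1, chr9:134641553-134641773, plus strand: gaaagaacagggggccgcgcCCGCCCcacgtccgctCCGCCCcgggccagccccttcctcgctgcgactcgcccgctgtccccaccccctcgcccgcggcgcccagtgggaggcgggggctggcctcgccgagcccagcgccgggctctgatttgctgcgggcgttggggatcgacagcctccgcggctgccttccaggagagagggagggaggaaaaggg
FN1, chr2:215436173-215436318, minus strand: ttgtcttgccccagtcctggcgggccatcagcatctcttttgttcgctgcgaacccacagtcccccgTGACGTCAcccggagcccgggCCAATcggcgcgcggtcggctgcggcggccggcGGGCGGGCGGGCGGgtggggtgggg
LOX, chr5:122078361-122078509, minus strand: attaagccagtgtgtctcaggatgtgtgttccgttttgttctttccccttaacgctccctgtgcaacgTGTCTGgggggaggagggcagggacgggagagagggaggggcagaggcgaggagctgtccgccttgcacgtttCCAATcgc

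Both strands of the whole 250-base windows were searched. The planned motifs were AP-1 (TGANTCA), TEAD (GGAATG), a SMAD element (CAGACA) and the TATA box (TATAAA). Of these, the SMAD element was found in LOX, as TGTCTG from base -182 to -177 of the RefSeq start, and 13.6% of the 35116 windows in the reference table hold it. AP-1, TEAD and TATA box letters, present in 6.57%, 11.9% and 10.7% of all windows, were in 0 of the 3 windows searched. Further windows of COL5A1 and LOX were not searched. Another 3 motifs were added after the sequences were seen. The cAMP response element, TGACGTCA, lay from -183 to -176 in FN1 and is in 1.65% of windows. CCAAT lay from -162 to -158 in FN1 and from -109 to -105 in LOX and is in 32.0% of windows. The GC box, GGGCGG, was in all 3 windows and is in 42.6% of all; its 6 matches in FN1 partly overlap one another, and those of FN1 and LOX nearer the start lie past the printed stretch. The G and C content was 74.0% in the COL5A1 window, 76.4% in FN1 and 55.2% in LOX, against a median of 58.0% over all windows. A match is a stretch of letters, and binding was not measured.

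COL5A1 was the most abundant of the 4 genes, and FPKM (fragments per length of transcript and per size of library) lets levels be set side by side because it is scaled to length. COL5A1 stood at 14.1, 13.2 and 14.5 FPKM in NC replicates 1 to 3 and at 32.2, 30.2 and 31.3 FPKM in shYTHDC2 replicates 1 to 3. The 2 groups did not overlap, and the lowest shYTHDC2 library was 2.08 times the highest NC library. The means were 13.9 ± 0.68 and 31.2 ± 0.96 FPKM (SD, n = 3 in each group, here and below), a 2.24-fold difference. In these bulk samples, more cells that make a transcript and more of it per cell cannot be told apart.

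FN1 was next in level. Its values were 9.87, 11.1 and 9.66 FPKM in NC and 22.8, 20.7 and 19.9 FPKM in shYTHDC2, with no overlap. The means of 10.2 ± 0.76 and 21.1 ± 1.5 FPKM differed 2.07-fold, the smallest ratio of the 4 genes and the nearest to the edge of the table, where the smallest fold in the authors' deposited table is 2.00. Genes below that edge were not analysed here.

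LOX stood at 4.39, 3.81 and 3.85 FPKM in NC and at 8.54, 8.92 and 7.99 FPKM in shYTHDC2. The groups did not overlap, and the lowest shYTHDC2 library was 1.82 times the highest NC library. The means were 4.02 ± 0.32 and 8.49 ± 0.47 FPKM, a 2.11-fold difference.

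COL8A1 was the lowest of the 4 genes and the one with the widest difference. It stood at 0.445, 0.334 and 0.419 FPKM in NC and at 3.60, 3.34 and 3.31 FPKM in shYTHDC2. The lowest shYTHDC2 library was 7.43 times the highest NC library, and the means of 0.399 ± 0.058 and 3.42 ± 0.16 FPKM differed 8.55-fold. The NC values lie under 1 FPKM, the lowest of the 4 genes. How many fragments they rest on is unknown, since no depth is given. The NC coefficient of variation was 14.6% for COL8A1, against 4.85% for COL5A1, 7.49% for FN1 and 8.07% for LOX. In the table, 187 genes had a mean that reached 1 FPKM in NC, in shYTHDC2 or in both. Over the 186 of these with signal in NC, the median NC coefficient of variation was 13.0%.

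**Figure D1:**
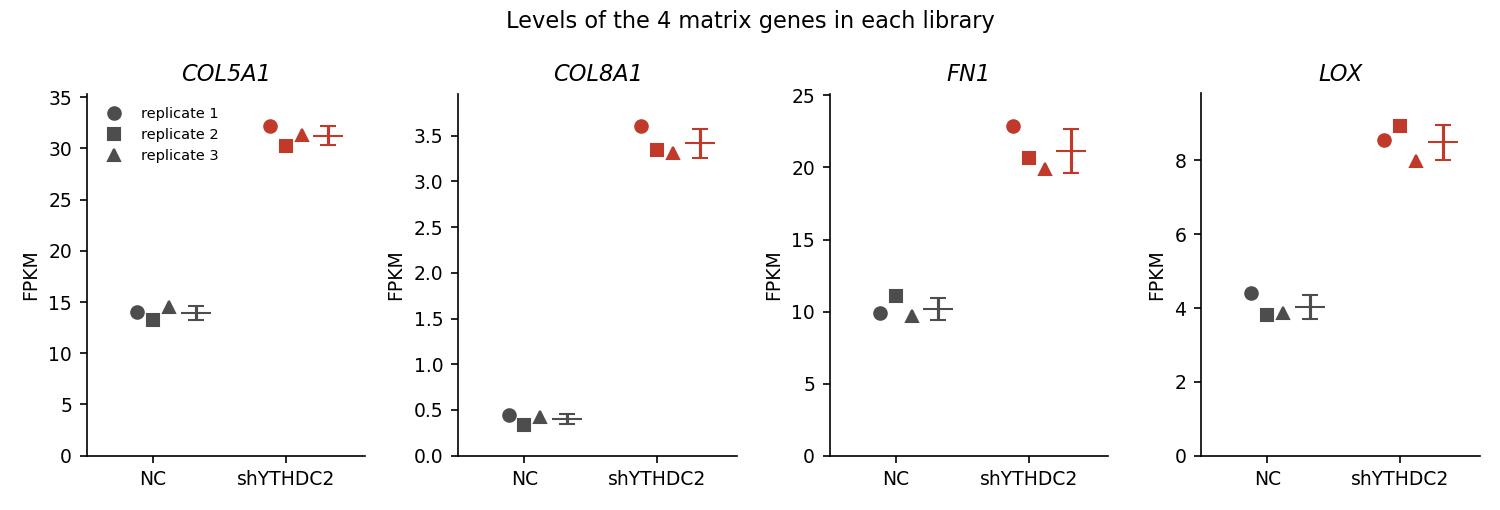
FPKM of COL5A1, COL8A1, FN1 and LOX (vertical axes, each from 0) in the 3 NC and 3 shYTHDC2 libraries; symbols are libraries, and the bar with whiskers beside them is the mean ± SD. The NC and shYTHDC2 symbols do not overlap for any of the 4 genes, with COL8A1 between 0.334 and 0.445 FPKM in NC and between 3.31 and 3.60 FPKM in shYTHDC2.

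The order of the levels was COL5A1, FN1, LOX and COL8A1 in each of the 6 libraries, and the ranges of neighbours in that order did not overlap within a group. Within the table, COL5A1 ranked 17th of the 402 genes by its NC mean and 19th by its shYTHDC2 mean, FN1 22nd and 27th, and LOX 46th and 52nd. COL8A1 moved from rank 172 to rank 87. Summed FPKM of the 4 genes was 28.4 to 28.8 in NC and 62.6 to 67.1 in shYTHDC2. COL5A1 made up 48.8% ± 2.3 of that sum in NC and 48.6% ± 1.3 in shYTHDC2, and COL8A1 1.40% ± 0.20 and 5.31% ± 0.044.

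Ratios taken within a library do not depend on the library total. COL5A1 over FN1 was 1.42, 1.19 and 1.51 in NC and 1.41, 1.46 and 1.57 in shYTHDC2, so the groups overlapped. COL5A1 over LOX was 3.20, 3.47 and 3.77 in NC and 3.76, 3.39 and 3.92 in shYTHDC2, again with overlap. FN1 over LOX had means of 2.55 ± 0.33 and 2.49 ± 0.18 and overlapped as well. These 3 genes thus differed between the groups by factors that their spread does not separate, although an equal factor is not shown by 3 libraries a group.

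COL8A1 departed from the other 3 genes. COL8A1 over LOX was 0.101, 0.0875 and 0.109 in NC and 0.422, 0.374 and 0.414 in shYTHDC2, a mean ratio 4.07 times as high with no overlap. Against FN1 the ratio was 0.0395 ± 0.0082 in NC and 0.162 ± 0.0042 in shYTHDC2, and COL5A1 over COL8A1 was 35.3 ± 4.0 in NC and 9.15 ± 0.29 in shYTHDC2. These ratios use the contrast that chose the genes and carry no test.

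Type VIII collagen is made of the chains of COL8A1 and COL8A2, and COL8A2 was also in the table. COL8A2 stood at 1.12, 1.01 and 1.34 FPKM in NC and at 2.55, 2.35 and 2.16 FPKM in shYTHDC2, a 2.04-fold difference. COL8A1 over COL8A2 was 0.399, 0.330 and 0.313 in NC and 1.41, 1.42 and 1.53 in shYTHDC2. The COL8A1 transcript was thus below the COL8A2 transcript in all 3 NC libraries and above it in all 3 shYTHDC2 libraries. Of the stretches of 100 bases in the longest coding transcripts of COL8A1 and COL8A2, 0 also occur in a transcript of another gene, and the same count of 0 held for COL5A1, FN1 and LOX. Only the sense strand of each transcript was compared, so the overlap of LOX with SRFBP1 on the opposite strand does not enter this count.

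**Figure D2:**
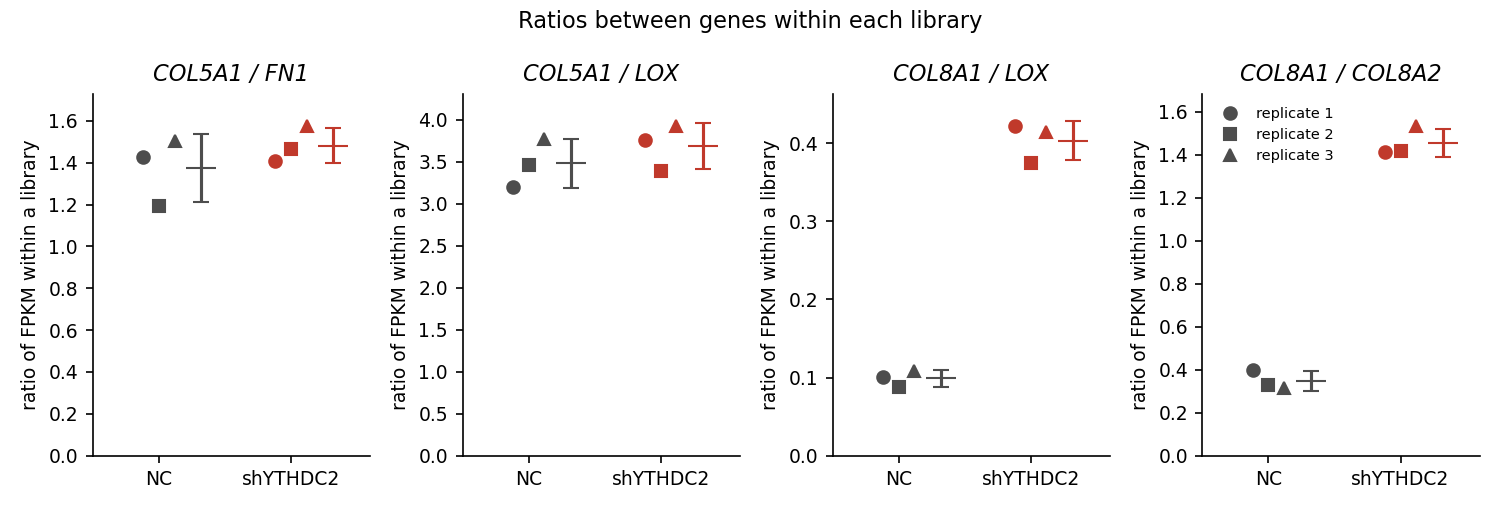
Ratio of 2 genes' FPKM within each library (vertical axes, each from 0) for COL5A1 over FN1, COL5A1 over LOX, COL8A1 over LOX and COL8A1 over COL8A2; symbols are libraries and the bar with whiskers is the mean ± SD of 3. The groups overlap in the panels with COL5A1 and are apart in the panels with COL8A1, which over COL8A2 goes from 0.313 to 0.399 in NC to 1.41 to 1.53 in shYTHDC2.

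On the log2(FPKM + 1) scale the difference between the groups, shYTHDC2 minus NC, was 1.11 (SE 0.057) for COL5A1, 0.98 (SE 0.075) for FN1, 0.92 (SE 0.080) for LOX and 1.66 (SE 0.080) for COL8A1. The added 1 shrinks the difference of a low gene: COL8A1 gave 2.82 (SE 0.15) with 0.1 added and 3.07 (SE 0.17) with 0.01. In limma with Benjamini-Hochberg adjustment, 4 of the 4 genes were called higher, where 98.9% of the 187 genes tested were called higher and 0 lower. The groups did not overlap, with shYTHDC2 on top, for 4 of the 4 genes and for 90.5% of the 402 genes. Since the table was selected for this difference, nothing is read from these counts. Scaled to the typical listed gene, which takes the genes of the table as equal between groups, the differences of COL5A1, FN1 and LOX turned below 0, and 28 genes were called higher and 6 lower with a trimmed mean of log ratios, and 19 higher and 8 lower with quantile normalization. Under the latter FN1 was among those called lower. COL8A1 stayed above 0 and called under both. No test is read from these calls either, since they use the contrast that chose the genes and a scaling set on the listed genes alone.

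Among the 186 genes that reached this mean and had signal in NC, the median fold was 2.40. COL8A1 ranked 7th of these by fold. COL5A1 ranked 120th, LOX 151st and FN1 162nd, each below that median. COL8A1 reached 1 FPKM only through its shYTHDC2 mean (0.399 FPKM in NC, 3.42 in shYTHDC2), whereas COL5A1, LOX and FN1 reached it in both groups. A gene this low in NC enters the ranking only if its fold is large, so the rank of COL8A1 is a description.

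**Figure D3:**
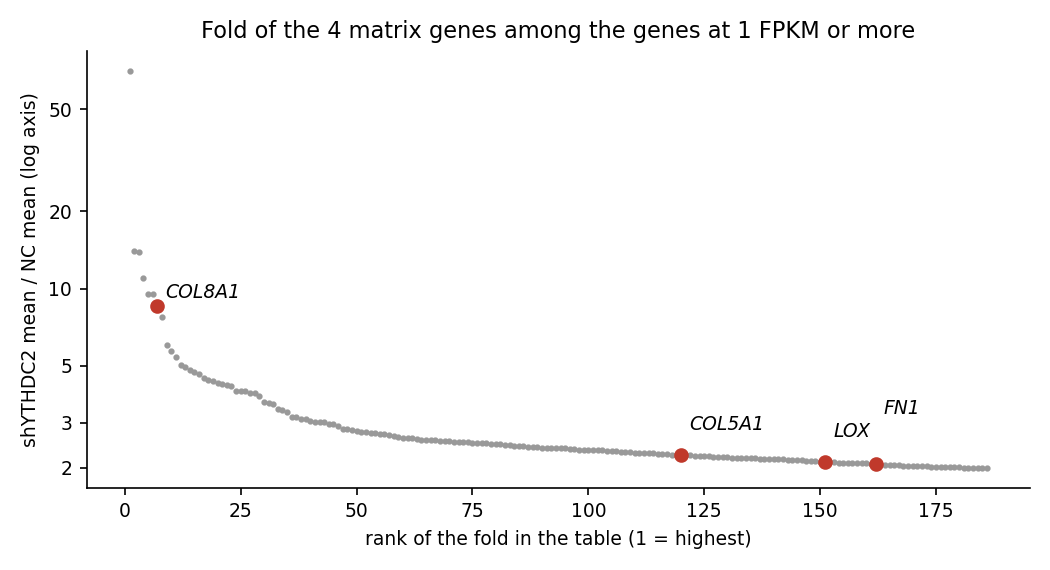
Ratio of the shYTHDC2 mean to the NC mean (vertical log axis) against its rank (horizontal axis) for the 186 genes that reached a mean of 1 FPKM and had signal in NC; grey points are genes, red points the 4 matrix genes. COL8A1 sits at rank 7, and COL5A1, LOX and FN1 sit at ranks 120, 151 and 162 in the flat part of the curve.

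Lists of matrix genes place these 4 among their pathway. Of all 187 genes tested, 98.9% were called higher, so a list whose tested genes were all called gives what the selection of the table gives, and nothing is read from the counts that follow. Of 44 collagen chains, 5 were in the table; 3 reached the filter and all 3 were called higher. COL5A1 and COL8A1 are among those chosen for this difference; COL8A2, the other chain tested, had a log2 difference of 0.64 (SE 0.089), where the median over all 187 tested genes was 0.88. COL4A3, a chain of basement membrane collagen IV, stood at 0.0168 ± 0.0051 and 0.0846 ± 0.030 FPKM, under the filter. COL24A1, a fibrillar collagen, was listed at 0 in all 3 NC libraries and in shYTHDC2 replicate 2, and at 0.0452 and 0.0509 FPKM in the other two. The other collagen symbols were not analysed here.

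Of 31 genes for collagen processing and crosslinking, 3 were in the table and 2 were tested, both called higher. They were LOX, itself chosen for being higher, and FKBP10, a prolyl isomerase of the endoplasmic reticulum that acts on procollagen. FKBP10 had a log2 difference of 0.84 (SE 0.090). It stood at 3.27, 3.78 and 3.51 FPKM in NC and at 7.92, 6.56 and 6.84 FPKM in shYTHDC2, close to LOX in level and fold (2.02-fold), and LOX over FKBP10 overlapped between the groups (1.15 ± 0.17 and 1.20 ± 0.14). P3H3, a collagen prolyl 3-hydroxylase family member, stood at 0.118 ± 0.042 and 0.440 ± 0.16 FPKM, under the filter.

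Of 53 matrix glycoproteins, FN1 and CCN2, a matricellular protein, were in the table and both were called higher. The log2 difference of CCN2 was 1.06 (SE 0.078), against 0.88 for the median tested gene, on a scale where the added 1 shrinks low genes. By fold CCN2 (2.15-fold) ranked 145th of the 186 genes with signal in NC, below their median of 2.40. FN1 over CCN2 was 0.623 ± 0.030 in NC and 0.603 ± 0.071 in shYTHDC2, with overlapping ranges. Of 13 proteoglycans, BGN, the small leucine-rich proteoglycan biglycan, was in the table, at 0.288 ± 0.0099 FPKM in NC and at 1.13, 0.443 and 0.836 FPKM in shYTHDC2. It was under the filter and not tested. Of 26 matrix receptors, among them the integrin chains that bind fibronectin and collagen, and of 29 genes of the TGF-beta pathway, 0 were in the table. Such a count says only that these symbols were not listed as at least 2-fold higher. The lists do not cover every matrix gene, and genes of these kinds outside the lists can be in the table.

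Of 39 matrix proteases and inhibitors, 6 were in the table, 5 were tested and all 5 were called higher, as were 98.9% of all tested genes. Their median log2 difference was 1.16, against 0.88 over the 187. ADAMTS12, a secreted metalloprotease, had means of 4.48 ± 0.14 FPKM in NC and 10.2 ± 0.19 in shYTHDC2. ADAM19, a membrane metalloprotease, stood at 0.560 ± 0.23 and 1.57 ± 0.36 FPKM. The membrane metalloproteases ADAM15 and ADAM12 were 2.42-fold and 2.69-fold higher, SERPINB2, an inhibitor of plasminogen activators, 3.92-fold, and MMP24, under the filter, 3.30-fold. Over all 235 symbols of the 7 matrix lists, 17 were in the table, and 12 of the 12 tested were called higher, against 98.9% of all 187. The count includes the 4 matrix genes. It fell to 2 higher and 0 lower with the trimmed mean scaling, and to 2 higher and 1 lower with quantile normalization. The 8 tested genes other than the 4 had a median log2 difference of 1.05, against 0.88 over the 187. The added 1 shrinks low genes, so a median on this scale depends on level as well as on fold. By fold, ADAM15, ADAM12, ADAM19 and SERPINB2 lay above the median of 2.40 over the 186 genes with signal in NC. Of these, ADAM19 reached 1 FPKM only through its shYTHDC2 mean. COL8A2, FKBP10, CCN2 and ADAMTS12 lay below that median.

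**Figure D4:**
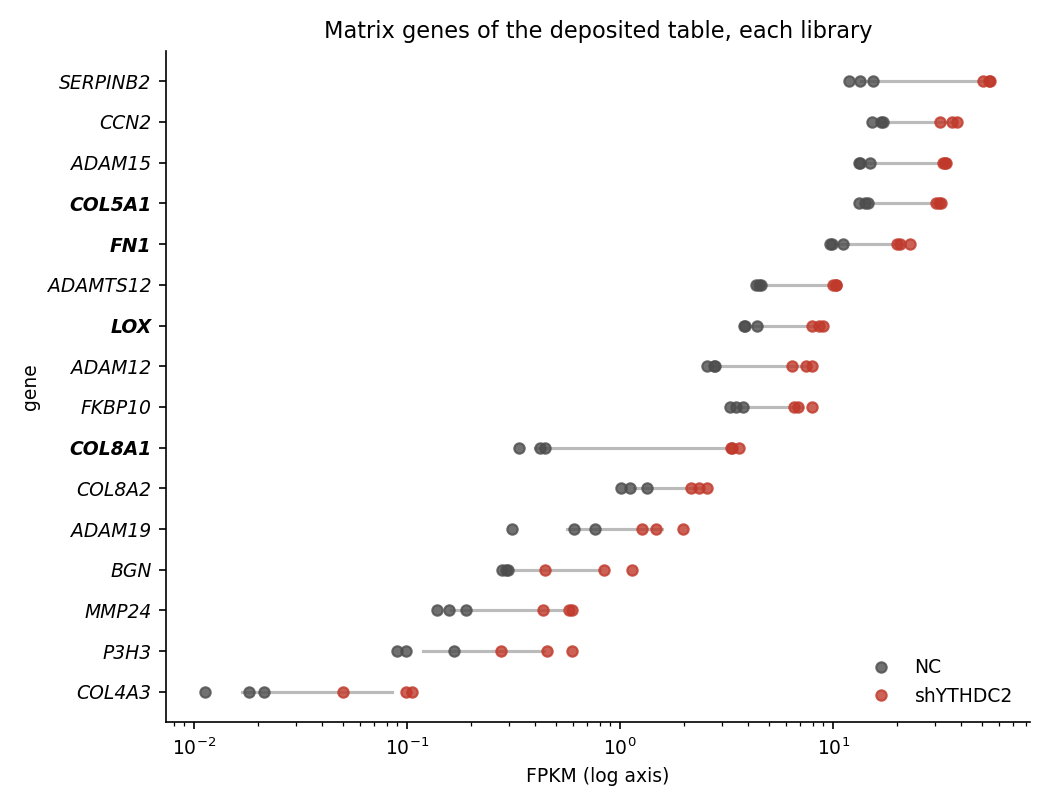
FPKM in each library (horizontal log axis) of the 16 genes of the matrix lists with signal in NC, ordered by their shYTHDC2 mean; grey points are NC libraries, red points shYTHDC2 libraries, grey lines join the means, and bold names are the 4 matrix genes. The line of COL8A1 is the longest, from 0.399 to 3.42 FPKM, while its partner chain COL8A2 goes from 1.16 to 2.35 FPKM.

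Markers of cell types that make much matrix were looked for beside these genes. Of 12 fibroblast markers, 0 were in the table, so a level of fibroblast genes was not analysed here. Of 8 markers of smooth muscle and pericytes, ACTA2 was in the table, at 0.123 to 0.210 FPKM in NC and 0.341 to 0.455 FPKM in shYTHDC2. Of 10 endothelial markers, CDH5 and ESAM were, with a summed level of 1.70 to 2.00 FPKM in NC and 3.32 to 4.26 FPKM in shYTHDC2. Their part in the levels of the 4 matrix genes was not tested. Of 12 leukocyte markers and of 15 markers of squamous epithelium, 0 were in the table, so the labelled cell type was not checked against its defining markers. YTHDC2 was not analysed here, and the group labels were not checked against it.

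The genes most like each of the 4 were taken as those with the smallest root mean square difference over the 6 libraries, on log2(FPKM + 1) values centred on each gene's mean, among the genes past the filter with a symbol. For COL5A1 they were ERLIN1 (root mean square difference 0.027), MYADM (0.028) and ANKRD33B (0.040). ERLIN1, a protein of the endoplasmic reticulum membrane, had means of 22.9 ± 0.78 FPKM in NC and 50.9 ± 0.50 in shYTHDC2, and MYADM, a membrane protein, at 8.82 ± 0.33 and 20.4 ± 0.58. For FN1 they were the dynein adaptor BICD2 (0.068), ADAMTS12 (0.072) and PERP (0.074), and for LOX the decoy receptor osteoprotegerin, TNFRSF11B (0.047), the interferon-induced gene IFI6 (0.059) and FNBP1 (0.070). TNFRSF11B had an NC mean of 0.387 FPKM and was 4.01-fold higher, against 4.02 FPKM and 2.11-fold for LOX. The likeness of TNFRSF11B to LOX thus comes with the added 1.

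For COL8A1 the nearest were the galectin LGALS1 (0.081), the membrane repair protein dysferlin, DYSF (0.094), and the lipid transporter SPNS2 (0.105). LGALS1 had means of 24.6 ± 1.5 FPKM in NC and 76.2 ± 5.6 in shYTHDC2, a 3.09-fold difference, so its likeness to the 8.55-fold COL8A1 comes with the added 1. With 0.1 or with 0.01 added, 0 of the 3 genes nearest to COL8A1 and 0 of those nearest to FN1 were the same, and 1 of those nearest to LOX. Among the 4 genes themselves, FN1 and LOX differed by 0.112, COL5A1 and FN1 by 0.122 and COL5A1 and LOX by 0.125. By nearness among 173 genes, these partners ranked from 27th (LOX from FN1) to 44th (LOX from COL5A1), so many other listed genes lay nearer. COL8A1 lay 0.276 from COL5A1, 0.351 from FN1 and 0.374 from LOX.

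The 4 transcripts also differ in features that the choice of genes did not use. The open reading frame of the longest coding transcript of COL5A1 encodes 1838 residues, 23.3% of them glycine, with 338 Gly-X-Y triplets in a row. That of COL8A1 encodes 744 residues, 25.5% glycine, and its longest run is 61 such triplets; COL8A2, with 703 residues, has a run of 60. FN1 encodes 2477 residues with 8.40% glycine and holds the Arg-Gly-Asp tripeptide, known as the integrin-binding site of fibronectin, 1 time. The same tripeptide occurs 2 times each in COL5A1 and COL8A2 and 0 times in COL8A1 and LOX. LOX encodes 417 residues with 7.19% glycine, against a median of 6.37% over 19669 coding genes.

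GGACT, the DNA spelling of a sequence in which N6-methyladenosine often lies, was counted in the same transcripts, a choice made after the levels were known. There were 12 in COL5A1 (1.42 per kilobase), 9 in COL8A1 (1.58), 7 in FN1 (0.786) and 6 in LOX (1.18). COL8A2, 2.04-fold higher, had 13 (2.78 per kilobase), more than 97.3% of coding genes. The median over all coding genes was 0.927 per kilobase, and COL8A1 exceeded 80.9% of these genes, COL5A1 75.3%, LOX 64.6% and FN1 40.6%. Methylation and binding of YTHDC2 were not measured.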

How the data were processed

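RNA of 3 NC and 3 shYTHDC2 libraries of CAL-27 cells was poly(A)-selected and sequenced as paired, dUTP-marked libraries, per the labels' protocols. Named in the submitters' processing notes, with no version or role, are the build GRCh38 and the tools edgeR, StringTie, HISAT2 and fastp. The deposited table gives, per the file headers, FPKM of each library. It also gives the authors' fold (a ratio), its log2 and the deposited p-values and q-values of a test that is not named. It holds 402 genes, 402 of them marked up. No depth is given, and low FPKM values showed no step common to all genes, so no counting interval or floor was computed.

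From the FPKM, group means, SDs and ratios within a library were computed. A model was planned for all genes and run on the listed ones: log2(FPKM + 1) of the 187 genes whose mean reached 1 FPKM in NC, in shYTHDC2 or in both, limma 3.58.1 in R 4.3.3 with the group as the only term, trend and robust variance, Benjamini-Hochberg adjustment at 0.05. The model was tried on simulated data with genes changed in both directions among unchanged ones. That setting differs from a list of genes all marked up, and nothing is read from it. The members and the lists were chosen with earlier results of these data known. Genes named are the 4 members, every gene of the matrix lists in the table (1 gene was left out of its list and is not reported here), and the 3 genes nearest to each member. Same-numbered libraries are not said to be pairs. Gene models come from GENCODE release 29 and promoter windows from RefSeq. Proteins were read from transcripts with Biopython 1.88. Alternatives were other scalings, pseudocounts, filters, thresholds and variance settings, a replicate block, each library left out, and the authors' marks.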

Additional observations from a re-analysis of the deposited data

How the results depend on the processing

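The log2 differences of COL5A1, FN1 and LOX turned to -0.12, -0.22 and -0.18 with the trimmed mean scaling and to -0.15, -0.27 and -0.12 with quantile normalization, which move the median of the tested genes from 0.88 to -0.01 and -0.09. Such scaling takes the listed genes as equal between groups by its construction, so no test is read from the calls under it. Of the 4 members called higher, 1 stayed called higher under each, and FN1 was called lower under quantile normalization, so 1 and 2 were called. The 12 matrix genes called higher fell to 2 called, all higher, and to 3, of which 1 was lower. The 185 genes called higher fell to 28 and 19, and the 0 called lower became 6 and 8. In limma 0 genes were lower at an unadjusted p under 0.05 without such scaling. With a 2-fold minimum on the log2(FPKM + 1) scale, 67 genes, 7 matrix genes and 2 members passed, and FN1 (0.98) and LOX (0.92) did not. Genes called higher were 342 with no filter, 74 with a mean of 5 FPKM, where COL8A1 was not tested, and 402 by the authors' marks. With each library left out in turn the differences ranged from 1.07 to 1.14 for COL5A1, 1.62 to 1.68 for COL8A1, 0.93 to 1.04 for FN1 and 0.89 to 0.97 for LOX, with 4 members, 12 matrix genes, 183 to 187 genes higher and 0 lower called.

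A fit with a replicate block passed 183 genes and the 4 members. The deviations of libraries that share a number correlated at 0.059, 0.15 and 0.073, each the highest of its library. NC replicate 3 with shYTHDC2 replicate 1 gave 0.050. These values are low and were not set against chance, so no pairing is read from them. Depth is unknown and limits COL8A1 in NC most of the 4.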
